A study of Sus scrofa with 14 samples.

Results

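Adipose-rich spots were defined on 2 spatial transcriptomics sections of the pig mammary gland as capture spots that held RNA of at least 2 of 5 adipocyte genes, ADIPOQ, PLIN1, PLIN4, LIPE and CIDEC, among at least 1000 unique molecular identifiers (UMIs, each standing for 1 captured RNA molecule). They numbered 502 of 6969 spots, 420 in the G90 section and 82 in the PI2 section. A spot is a small area of tissue that can hold several cells of different types, so these spots are described as regions and not as cells.

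The study followed the gland of multiparous sows in their second breeding cycle from late pregnancy through lactation to involution. The G90 section came from a sow at day 90 of gestation and the PI2 section from a sow 2 days into natural involution, with 1 frozen section per stage. No treatment or genetic change separated the animals. Nuclei from 10 further gland libraries, 2 sows at each of 5 stages, were used to look at the same genes in another readout.

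In the mammary gland the ducts and alveoli grow within a fat pad, and its adipocytes store triacylglycerol, release fatty acids and secrete hormones. The fat pad shrinks as the epithelium expands in pregnancy and lactation, and it fills again with lipid during involution. Within an adipocyte the stored lipid lies in a large droplet, coated by perilipins, built by acyltransferases and broken down by lipases.

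With 1 section per stage there was no replicate of a stage, so no difference was tested and stage, animal and section cannot be told apart. All intervals are 95% intervals and cover counting error only. In RNA pooled over a spot, fewer cells of a type and less RNA per cell cannot be told apart. The G90 section held 4721 spots with 42815421 UMIs, a median of 8062 per spot (108 to 41884), and the PI2 section held 2248 spots with 17906403 UMIs, a median of 5927 (169 to 35560). The 2248 spot barcodes of the PI2 section all occurred in the G90 section too, since the capture slide carries a fixed set of barcodes.

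Of spots with at least 1000 UMIs, 9.06% (95% exact binomial interval 8.25 to 9.93, 420 of 4634) were adipose-rich at G90 and 3.98% (3.18 to 4.92, 82 of 2059) at PI2. In G90 the adipose-rich spots were shallow, with a median of 3501 UMIs against 8740 in the other spots. They made up 23.7% of the shallowest of 5 equal depth classes and 3.24% of the deepest. In PI2 the medians were closer, 5675 against 6672 UMIs, and the share ran only from 2.91% to 4.85% over the classes. When every spot was thinned to 1000 UMIs, 133 of 4634 G90 spots (2.87%, 2.41 to 3.39) and 14 of 2059 PI2 spots (0.680%, 0.372 to 1.14) met the rule, a higher share in G90 at that depth. In the deepest class, which spans much the same depths in both sections, the shares were 3.24% (2.19 to 4.59) in G90 and 3.88% (2.24 to 6.23) in PI2, and in the next class 3.56% (2.46 to 4.96) and 2.91% (1.51 to 5.03), so no difference between the sections could be read in deep spots. Since depth moved with the share, every fold below compares spots matched in 5 bins of depth. Within a bin the depths can still differ, most of all in the deepest, which has no upper limit.

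**Figure D1:**
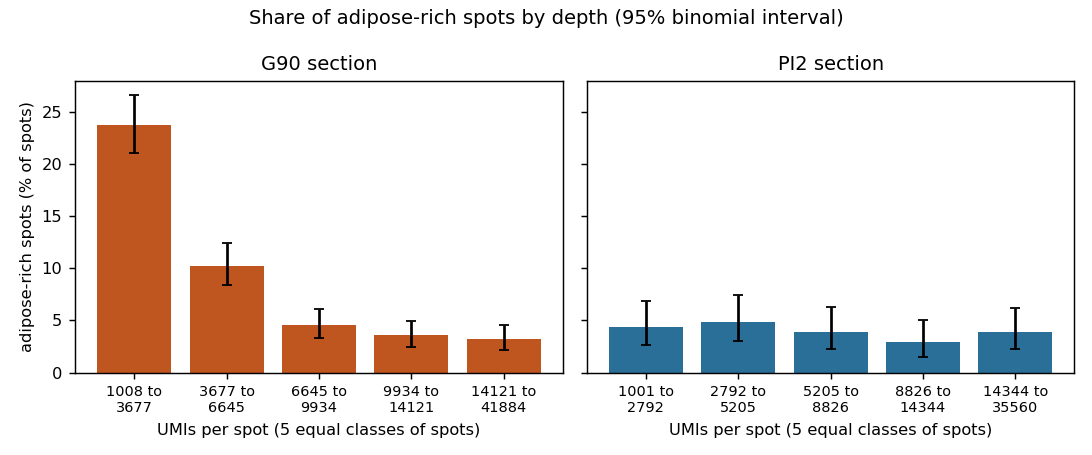
Share of spots that were adipose-rich (percent, vertical axis) in each of 5 equal classes of spots ordered by total UMIs (horizontal axis) in the G90 and PI2 sections, with bars for the 95% exact binomial interval. The G90 share runs from 23.7% in the shallowest class to 3.24% in the deepest, while the PI2 share lies between 2.91% and 4.85%.

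The 5 markers chose the spots, so their levels here are a description. ADIPOQ, which encodes the hormone adiponectin, had UMIs in 332 of the 420 G90 spots and 58 of the 82 PI2 spots. PLIN4, a droplet coat protein, was in 305 and 33. LIPE, the hormone-sensitive lipase, was in 179 and 38. PLIN1, the main coat protein of the adipocyte droplet, was in 176 and 34. CIDEC, which fuses droplets, was in 49 and 31. ADIPOQ and PLIN4 were the commonest exact pair in G90 (106 spots). In PI2 no pair stood out, with 11 spots of LIPE and CIDEC and 9 of ADIPOQ with each of the other markers. Most spots stood at the edge of the rule, as 278 of the 420 and 59 of the 82 held exactly 2 markers, and 8 and 1 held all 5. The members nearest the depth limit had 1008, 1025 and 1036 UMIs in G90 and 1097, 1233 and 1308 in PI2, while 16 and 2 spots with 2 or more markers lay below it, the nearest with 980 and 933 UMIs.

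The label was checked by leaving each marker out of the rule in turn and measuring it in spots chosen by at least 2 of the other 4, at matched depth. Each left-out marker was enriched in both sections. In G90, PLIN4 was 7.39-fold above the level of the other spots (6.32 to 8.65, 347 UMIs in 247 spots), PLIN1 7.05-fold (5.56 to 8.92) and ADIPOQ 6.88-fold (6.03 to 7.85), with 344 against 50 counts per 1000000 UMIs (CPM). CIDEC was 4.67-fold higher (2.87 to 7.58) and LIPE 4.15-fold (3.28 to 5.25). In PI2, ADIPOQ was 17.4-fold higher (12.99 to 23.2), PLIN4 17.6-fold (10.2 to 30.2) and PLIN1 15.0-fold (9.47 to 23.9). LIPE, at 4.004-fold (2.35 to 6.81), and CIDEC, at 2.77-fold (1.29 to 5.98, 7 UMIs), were the least enriched there. ADIPOQ, PLIN1 and PLIN4 thus had higher left-out folds than LIPE and CIDEC in both sections, although in G90 the CIDEC interval overlapped theirs.

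Across genes, each fold is the UMIs counted in the adipose-rich spots over those expected from other spots of the same section at matched depth. In G90, 10036 genes had enough UMIs, of which 292 (2.91%) were at least 1.5-fold higher and 675 (6.73%) at least 1.5-fold lower. The median gene stood at 0.920-fold (-0.12 on the log2 scale), and dividing by it turned the split to 445 higher and 382 lower. In PI2, 312 of 6755 genes (4.62%) were higher and 424 (6.28%) lower, with a median of 0.986. Higher genes made up 42.4% of the PI2 calls, against 60.2% when single spots were averaged, 67.3% when spots were thinned and 53.7% with at least 3 markers. The interval lay above 1 for 252 of the 292 and 235 of the 312 higher genes, and below 1 for 462 of the 675 and 199 of the 424 lower genes, so many lower calls rested on few UMIs.

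Besides the rule markers, 3 genes were among the 12 leading genes of both sections, AGT, DGAT2 and TRARG1. AGT encodes angiotensinogen, the precursor of angiotensin, which adipocytes also secrete. It had 61 UMIs against 7.71 expected in G90 (7.91-fold, 5.14 to 12.2) and 36 against 5.92 in PI2 (6.08-fold, 4.22 to 8.76). DGAT2 catalyses the last step of triacylglycerol synthesis. Its 116 UMIs against 22.2 expected in G90 gave 5.23-fold (3.94 to 6.94), and its 52 against 7.08 in PI2 gave 7.34-fold (5.38 to 10.0). TRARG1 takes part in the traffic of the insulin-responsive glucose transporter in fat cells. It had 137 UMIs against 20.9 expected in G90 (6.56-fold, 4.98 to 8.65) and 23 against 1.27 in PI2 (18.1-fold, 10.5 to 31.3). In the spots outside, these genes were scarce, at 9.79, 3.40 and 9.21 CPM in G90 and 10.5, 8.77 and 1.88 CPM in PI2 for DGAT2, AGT and TRARG1 at matched depth. AGT in both sections, and DGAT2 and TRARG1 in PI2, had so few expected UMIs that the minimum count fixed their higher calls.

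Because these 3 genes led in both sections, the 300 bases before their RefSeq gene starts in the Sscrofa11.1 assembly are shown, each 5′ to 3′ on the strand of the gene. They lie at chr14:59642730-59643029 on the plus strand for AGT, chr9:10031863-10032162 on the plus strand for DGAT2, and chr12:46634116-46634415 on the minus strand for TRARG1, which the annotation lists as TUSC5. Capitals mark the only match found to either motif searched.
AGT: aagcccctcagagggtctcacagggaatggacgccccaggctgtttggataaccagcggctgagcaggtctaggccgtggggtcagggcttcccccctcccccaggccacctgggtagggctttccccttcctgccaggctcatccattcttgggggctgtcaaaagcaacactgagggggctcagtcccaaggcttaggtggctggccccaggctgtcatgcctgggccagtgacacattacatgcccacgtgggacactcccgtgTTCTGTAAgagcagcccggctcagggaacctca
DGAT2: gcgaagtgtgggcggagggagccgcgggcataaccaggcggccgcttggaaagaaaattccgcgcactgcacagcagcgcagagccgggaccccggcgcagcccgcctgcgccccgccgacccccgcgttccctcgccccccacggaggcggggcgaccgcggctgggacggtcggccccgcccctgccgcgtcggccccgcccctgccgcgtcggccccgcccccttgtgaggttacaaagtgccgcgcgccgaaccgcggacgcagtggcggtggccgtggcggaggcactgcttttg
TRARG1: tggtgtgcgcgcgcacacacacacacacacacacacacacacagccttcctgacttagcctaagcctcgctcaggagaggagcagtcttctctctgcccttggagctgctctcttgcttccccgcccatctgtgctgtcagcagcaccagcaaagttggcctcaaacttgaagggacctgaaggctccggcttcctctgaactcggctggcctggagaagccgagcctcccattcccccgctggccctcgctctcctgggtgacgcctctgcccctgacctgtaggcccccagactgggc
Both strands were searched for the direct repeat AGGNCANAGGNCA, bound by the adipocyte regulator PPARG with RXR, and for the C/EBP motif TTNCNNAA. The direct repeat occurred in 57 of 19556 promoters of this length (0.291%) and in none of the 3. The C/EBP motif occurred in 7405 (37.9%) and had 1 match among the 3, in AGT, read on the opposite strand and starting 33 bases before the gene start. A match of letters is a description of the sequence and not a measured site.

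The other leading genes of G90 were of several kinds, and of those named next only THRSP was on an adipocyte list. CA3, a carbonic anhydrase abundant in fat and muscle, had 181 UMIs (79.9 against 13.3 CPM, 5.998-fold, 4.72 to 7.62). SDR16C5, a retinol dehydrogenase, was 8.47-fold higher (5.52 to 12.997, 68 UMIs). THRSP, a regulator of lipogenesis, was 5.21-fold higher (3.17 to 8.54), and SFRP5, a Wnt antagonist secreted by fat, 5.54-fold (3.05 to 10.1). These 4 genes had too few UMIs in PI2 to be measured, CA3 with 14 UMIs against 0.675 expected and THRSP with 10 against 0.568. SLC25A34, a mitochondrial carrier, was 5.82-fold higher (3.33 to 10.2) and OPRL1, the nociceptin receptor, 4.69-fold (2.64 to 8.32).

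FHL1, a LIM domain protein, had the most UMIs of the G90 leaders, 735 (324 against 102 CPM, 3.18-fold, 2.89 to 3.49), and was 1.92-fold higher in PI2 (1.61 to 2.28). GPX3, a secreted glutathione peroxidase, was 4.05-fold higher in G90 (3.30 to 4.96) and 2.08-fold in PI2 (1.54 to 2.81). DNASE1L3, a secreted DNase, was 6.76-fold higher in G90 (3.90 to 11.7) on 19 UMIs, and at 0.906 in PI2 (0.559 to 1.47).

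The leading genes of PI2 included genes of fatty acid uptake and desaturation. LPL, the lipase that frees fatty acids from circulating lipoproteins, had 63 UMIs against 12.9 expected (93.4 against 19.0 CPM, 4.90-fold, 3.74 to 6.42). SCD, which makes monounsaturated fatty acids, had 58 against 23.5 (2.47-fold, 1.89 to 3.23), and ELOVL6, which lengthens saturated fatty acids, was 2.63-fold higher (1.76 to 3.95). AK4, a mitochondrial adenylate kinase, was 5.23-fold higher (3.23 to 8.49) and ABLIM1, an actin-binding protein, 3.45-fold (2.21 to 5.40). GJA5, a gap junction protein of arterial endothelium, was 3.18-fold higher (2.22 to 4.55), and PI16, a marker of adventitial fibroblasts, 2.14-fold (1.75 to 2.63). In G90 GJA5 stood at 2.60 (1.70 to 3.96), AK4 at 2.19 (1.47 to 3.25) and ABLIM1 at 1.22 (0.932 to 1.61).

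For HBB and MYOC in PI2 a large part of the UMIs lay in a single spot, in a check chosen after seeing the data. HBB, a haemoglobin chain of red blood cells, had 494 UMIs against 249 expected (1.98-fold, 1.81 to 2.17), but 138 of them (27.9%) lay in 1 spot and the fold was 1.47 without it, 1.19 when thinned and 1.41 with at least 3 markers. MYOC, a secreted glycoprotein, was 4.26-fold higher (2.62 to 6.93) on 19 UMIs, 7 of them in 1 spot, and was still 2.76-fold higher without it. With at least 3 markers no MYOC UMI was left in PI2. In G90 MYOC was 3.25-fold higher (2.46 to 4.29) on 78 UMIs in 41 spots.

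**Figure D2:**
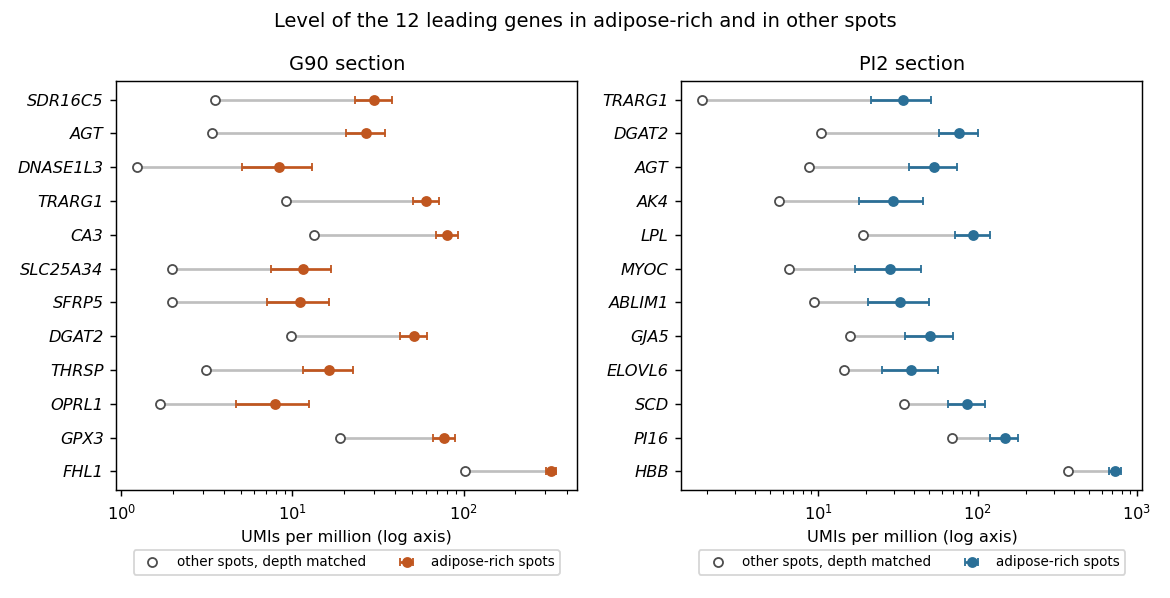
Level in CPM (horizontal log axis) of the 12 leading genes of each section, with filled points for adipose-rich spots, open points for other spots at matched depth and bars for the 95% counting interval of the filled points. AGT, DGAT2 and TRARG1 appear in both panels, and FHL1 (324 against 102 CPM) and HBB (732 against 370 CPM) stand lowest, as the panels are ordered by fold.

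Among the genes lowest in adipose-rich spots, SCGN, a calcium-binding protein, was low in both sections. It had 154 UMIs against 335 expected in G90 (0.460-fold, 0.391 to 0.540) and 112 against 441 in PI2 (0.254-fold, 0.211 to 0.306). The lowest gene of PI2, MMP7, a matrix protease of epithelia, had 20 UMIs against 133 (0.150-fold, 0.0969 to 0.233). In G90 MMP7 stood at 0.468 (0.291 to 0.752), and at 0.676 when single spots were averaged. SPP1, the secreted phosphoprotein osteopontin, was at 0.226 in PI2 (0.167 to 0.306) and 0.550 in G90 (0.342 to 0.884). PGLYRP1, an antibacterial protein, was at 0.436 in PI2 (0.394 to 0.483, 379 UMIs). TRPV5, an epithelial calcium channel, was at 0.193 there (0.0801 to 0.466). In G90, MLPH, which carries vesicles along actin, was at 0.390 (0.237 to 0.641), and CFI, which cleaves complement, at 0.207 on few UMIs (0.0768 to 0.558).

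The lists of adipocyte genes gave higher counts than all genes did. Over 8 lists of adipocyte function that leave out the 5 markers, 15 of 87 measured genes (17.2%) were higher and 0 lower in G90, and 14 of 69 (20.3%) were higher and 2 lower in PI2, against 2.91% and 4.62% of all genes. The median of these genes was nevertheless near 1, at 1.11-fold and 1.09-fold, so most measured adipocyte genes differed little between the spots. These lists were drawn up with earlier results of these data known. Genes with few expected UMIs, such as DGAT2 and TRARG1 in PI2, could enter these counts only if already past 1.5-fold.

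Lipid storage had 3 of 13 measured genes higher in G90, against 2.91% of all genes. They were DGAT2, TRARG1 and the caveolar protein gene CAVIN3 (1.55-fold). In PI2, 4.62% of all genes were higher and 6.28% lower. DGAT2, TRARG1 and FITM2, which buds lipid droplets from the endoplasmic reticulum (2.32-fold, 1.53 to 3.52), were higher among 11 in PI2. The lower genes there were both triacylglycerol synthesis enzymes, AGPAT2 with 7 UMIs against 29.6 expected (0.237-fold, 0.112 to 0.498) and DGAT1 (0.575-fold, 0.332 to 0.997, and 0.909 with at least 3 markers), which stood at 0.961 and 0.950 in G90. DGAT2 was thus high, and DGAT1, which carries out the same reaction, was not, in both sections. The perilipins found in many cell types, PLIN2 and PLIN3, lay between 0.933 and 1.01 in both sections.

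Of the lipolysis genes, PNPLA2, the adipose triglyceride lipase (1.75-fold, 1.51 to 2.02), and NPR1, a natriuretic peptide receptor (1.78-fold, 1.47 to 2.16), were higher in G90 among 7 measured. Of all genes 2.91% were higher in G90. None of 5 lipolysis genes was higher in PI2, near the 4.62% of all genes higher there, and PNPLA2 and NPR1 both stood at 1.15. The adrenergic receptor genes ADRA2A, ADRB1 and ADRB3 had 0 UMIs in adipose-rich spots of both sections. A count of 0 allows a level of up to 1.32 CPM in G90 and 4.45 CPM in PI2.

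Fatty acid uptake had the most higher genes in PI2 among the 8 adipocyte lists, where 4.62% of all genes were higher. LPL, CD36, the fatty acid translocase (1.82-fold, 1.45 to 2.27), ACSL1, which activates fatty acids (1.89-fold, 1.17 to 3.06), FABP3 (1.88-fold, 1.37 to 2.60) and FABP4 (1.87-fold, 1.68 to 2.08), both cytosolic fatty acid carriers, made 5 of 11. In G90, CD36 (1.70-fold, 1.48 to 1.96) and ACSL1 (1.70-fold, 1.21 to 2.38) were higher among 11, against 2.91% of all genes. FABP4 stood at 1.41 (1.33 to 1.49) in G90 and FABP3 at 0.875.

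In fatty acid synthesis, THRSP and ELOVL6 (1.73-fold, 1.36 to 2.20) were higher in G90 among 12 genes. In PI2 SCD, ELOVL6 and the desaturases FADS2 (1.68-fold) and FADS1 (1.66-fold) were higher among 10. FASN, the fatty acid synthase, was near 1 in both (0.892 and 0.972). Of the fatty acid oxidation genes 0 of 13 and 0 of 11 passed 1.5-fold, which at 2.91% and 4.62% of all genes higher is near the background. Of the glucose supply genes none of 7 passed in G90, and 2 of 6 did in PI2, IRS2, an insulin receptor substrate (1.59-fold, 0.986 to 2.56, and 1.303-fold when thinned), and SLC2A4, the insulin-responsive glucose transporter (1.51-fold, 0.984 to 2.33), both with intervals that reached 1, and SLC2A4 was at 0.685 with at least 3 markers.

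Among adipocyte transcription factors, PPARG, the main regulator of fat cell formation, had 28 UMIs against 15.3 expected in G90 (1.83-fold, 1.21 to 2.78), and EBF2, which helps set the fat cell fate, was 1.58-fold higher (1.03 to 2.41, and 1.295-fold when thinned), among 14 measured. Of all genes, 2.91% were higher in G90 and 4.62% in PI2. In PI2 none of 8 transcription factors passed, near that share, and PPARG, with 12 UMIs, was not measured deeply enough. Of the secreted factors, 4 of 10 were higher in G90, against the same 2.91%. They were RBP4, the retinol carrier (2.37-fold, 1.47 to 3.84), SFRP4, a Wnt antagonist (2.14-fold, 1.65 to 2.78), CFD, the complement protease adipsin (1.58-fold, 1.49 to 1.69), and ANGPTL4, an inhibitor of LPL (1.52-fold, 1.36 to 1.69). In PI2 none of 7 was higher, again near the share of all genes, with CFD at 1.03, SFRP4 at 1.35 and ANGPTL4 at 1.06. LEP, which encodes leptin, had 11 and 2 UMIs, too few to compare, and RETN, which encodes resistin, had 0 in both sections.

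The list of genes from the study held those it names for adipocytes. It also held CCL21, CCL5 and CCL2, which the study gives as ligands from other cells, and IL34 with CSF1R, a signal to immune cells. Of 20 measured genes of this list, 5 were higher in G90, against 2.91% of all genes. Besides PPARG and CD36 these were ACKR4, a scavenging chemokine receptor, with 22 UMIs against 6.21 expected (3.54-fold, 2.03 to 6.18), its ligand CCL21 (2.32-fold, 1.58 to 3.40), which lymphatic endothelium makes, and the Wnt co-receptor LRP6 (1.54-fold, 1.09 to 2.16, and 1.15-fold when thinned). IGF1R, the insulin-like growth factor receptor, was the 1 lower gene, against 6.73% of all genes (0.599-fold, 0.31 to 1.14), on 10 UMIs, and it turned to 1.29 when spots were thinned and 1.07 with at least 3 markers. In PI2 LPL and CD36 were higher among 13, against 4.62% of all genes, and the chemokine CCL2 was lower (0.643-fold, and 0.805 with at least 3 markers), against 6.28%. EGFR, the epidermal growth factor receptor, stood at 0.707 in G90 and 0.845 in PI2. The study chose these genes in part from these samples, so their counts are not independent evidence of direction.

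The folds of some genes were graded with the number of markers a spot held. Against spots with no marker, at matched depth, TRARG1 in G90 stood at 2.53-fold in spots with 1 marker, 5.62-fold with 2, 16.3-fold with 3 and 24.8-fold (15.1 to 40.9) with 4 or 5. DGAT2 stood at 2.68, 4.14, 10.1 and 34.3-fold (21.3 to 55.1) in the same order, and AGT at 3.14, 7.13, 15.7 and 26.5-fold. In PI2, DGAT2 went from 1.43-fold with 1 marker to 5.56-fold with 2 and 17.6-fold with 3, and TRARG1 from 1.93 to 15.3 and 38.8-fold. These steps rest on 966, 278, 91 and 51 spots in G90 and on 319, 59 and 17 in PI2, whose 6 spots with more markers were too few.

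CD36 was graded in both sections, from 1.04 to 3.25-fold in G90 and from 0.9998 to 3.42-fold in PI2. LPL was graded in PI2 only, from 1.25-fold to 3.38 and 11.6-fold (7.33 to 18.5), and in G90 it lay between 0.982 and 1.02 up to 3 markers and at 1.61-fold (1.32 to 1.97) with 4 or 5. Not every gene climbed with each step in G90. MYOC stood at 1.57, 3.97, 2.95 and 2.32-fold in the same order, and CCL21 at 1.59, 1.91, 3.90 and 2.73-fold. Summed milk protein genes were lower with each step in G90, at 0.917, 0.816, 0.641 and 0.424 (0.345 to 0.519).

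**Figure D3:**
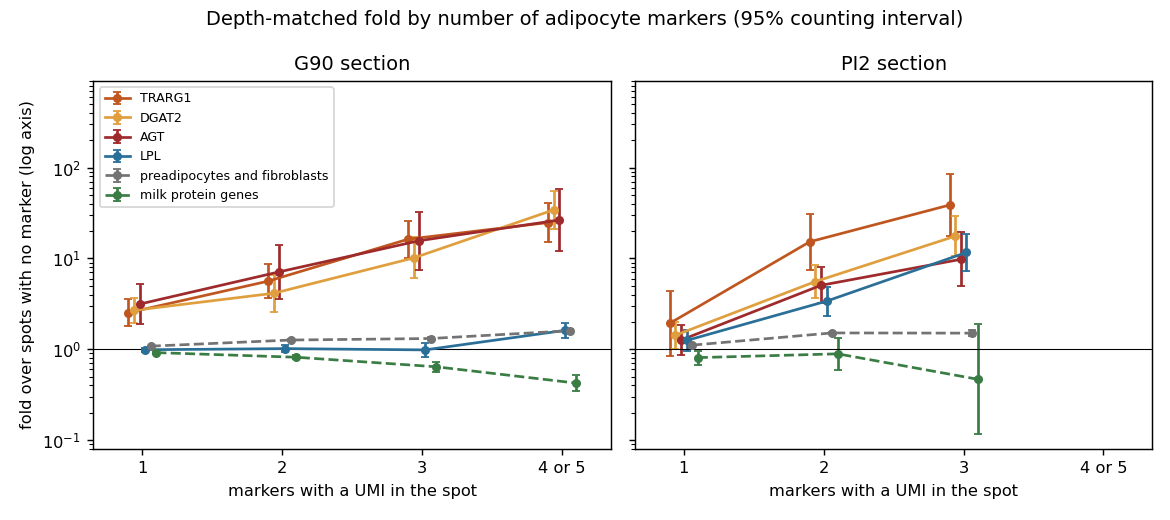
Fold over spots with no marker at matched depth (vertical log axis) by the number of adipocyte markers in a spot (horizontal axis), for AGT, DGAT2, TRARG1, LPL and the summed fibroblast and milk protein genes in each section, with bars for the 95% counting interval. DGAT2 and TRARG1 climb with each added marker, to 34.3-fold and 24.8-fold at 4 or 5 markers in G90, and LPL climbs in PI2 but stays near 1 in G90 until the last step.

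The folds also differed between spots with and without ADIPOQ, a split that cannot be told apart from the number of markers, since spots with more markers hold ADIPOQ more often. All folds of this split and of single-marker spots are against spots with no marker, not against all other spots. In G90, DGAT2 was 11.4-fold higher (7.60 to 17.1) in adipose-rich spots with ADIPOQ and 1.47-fold (0.527 to 4.11) in the 88 without it. In PI2 the values were 12.5-fold (8.90 to 17.6) in 58 spots and 1.98-fold (0.802 to 4.87) in 24. LPL in PI2 divided the same way, 8.54-fold against 1.37-fold, while TRARG1 was at 29.0-fold (15.6 to 53.9) against 3.14-fold on 1 UMI (0.417 to 23.6). In G90 the split was not seen in every gene, with CA3 at 8.60-fold (6.12 to 12.1) with ADIPOQ and 7.71-fold (4.93 to 12.1) without, and AGT at 12.7-fold (6.67 to 24.2) and 6.89-fold (2.91 to 16.3). Among spots with a single marker, DGAT2 in G90 stood at 3.43-fold with ADIPOQ alone, 3.25-fold (1.60 to 6.57) with PLIN1 alone, 2.38-fold with PLIN4 alone and 1.90-fold with LIPE alone, while the CIDEC-only spots held 1 UMI and give no value to read. In PI2 it stood at 3.33-fold with ADIPOQ, 3.01-fold with PLIN1 and 3.26-fold with PLIN4, and at 0.715 (0.382 to 1.34) with LIPE and 0.785 (0.345 to 1.79) with CIDEC. AGT in PI2 did not differ beyond its intervals, at 2.03-fold (1.16 to 3.56) with CIDEC alone and 1.91-fold (0.931 to 3.93) with ADIPOQ alone. The PI2 spots without ADIPOQ were also deeper, with a median of 11321 UMIs against 4482. For these 24 spots the DGAT2 and TRARG1 intervals reached 1. Those genes therefore do not bear out the name adipose-rich for the PI2 spots without ADIPOQ.

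Adipose-rich spots held RNA of other cell types, and some fibroblast genes were raised in both sections. In PI2, 7 of 15 fibroblast genes were higher, against 4.62% of all genes, and none lower (median 1.48-fold), among them the collagens COL3A1 (1.65-fold), COL1A1 (1.63-fold) and COL1A2 (1.58-fold). In G90, 4 of 17 were higher, against 2.91% of all genes, and none lower (median 1.34-fold), the matrix protein DPT (2.15-fold), PI16 (1.90-fold), the actin-severing GSN (1.81-fold) and MFAP5 of elastic fibres (1.55-fold). The summed level of the fibroblast genes in single spots had a median of 7307 CPM (1542 to 33639) in adipose-rich and 4432 CPM (975.3 to 48035) in other G90 spots, and 7519 (1921 to 40000) against 4309 (266 to 73049) in PI2. These medians are not matched for depth. At matched depth the summed level was 6780 against 5291 CPM in G90 (1.28-fold) and 7107 against 4694 CPM in PI2 (1.51-fold). Other genes of the list were not raised, with CD34, a stromal and endothelial surface protein, at 1.001 in G90 and 0.766 (0.630 to 0.931) in PI2, the matrix protein POSTN at 0.879 and 1.04, and the platelet-derived growth factor receptor PDGFRA at 0.977 in G90 and 1.38 (0.914 to 2.08) in PI2. DLK1, a preadipocyte marker, had 0 UMIs in adipose-rich spots of both sections. The part of fibroblast RNA in the gene folds was not tested.

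Against the same 2.91%, 3 of 5 lymphatic endothelial genes were higher in G90, CCL21, LYVE1, a hyaluronan receptor (1.89-fold, 1.46 to 2.45), and MMRN1 (1.78-fold). Their summed level was 137 CPM against 80.8 expected. In PI2 only PDPN could be measured (1.962-fold, 1.305 to 2.95), and the summed level was 77.1 CPM against 66.3 expected (1.16-fold). Below the minimum count there, CCL21 had 6 UMIs against 8.85 expected, FLT4 6 against 7.53 and LYVE1 9 against 5.47. Of the blood endothelial genes CLDN5, a tight junction protein (1.77-fold, 1.52 to 2.06), and VWF, a clotting factor carrier (1.57-fold, and 1.42-fold with at least 3 markers), were higher among 15 in G90, where 2.91% of all genes were higher, and none of 13 passed in PI2, with a median of 1.23-fold in both. Mural cell genes gave 0 of 10 in G90 and 2 of 10 higher in PI2, where 4.62% of all genes were higher. The part of vessel RNA in the results was not tested.

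Luminal epithelial genes were lower in part. In PI2, 3 of 10 were lower and none higher (median 0.683-fold), against 6.28% of all genes lower, the aldehyde dehydrogenase ALDH1A3 (0.438-fold, 0.297 to 0.646), the oestrogen receptor ESR1 (0.573-fold on 8 UMIs, 0.284 to 1.16, and 0.771 with at least 3 markers) and the keratin gene KRT18 (0.640-fold, 0.543 to 0.754). CLDN3 and PGR had 0 UMIs there, with 0.344 and 0.201 expected, so neither could be read. In G90 none of 11 passed, and their median of 0.888 was close to the 0.920 of all genes. Of the myoepithelial genes, TP63, a basal cell transcription factor (0.611-fold, 0.409 to 0.915), was lower among 7 in G90, against 6.73% of all genes, and none of 6 passed in PI2 (median 1.06). Of the milk fat globule genes none of 5 passed in G90, near the 2.91% of all genes higher there. Only 2 could be measured in PI2, where 4.62% of all genes were higher. FABP3, counted above among the fatty acid uptake genes, was higher, and MFGE8, a globule membrane protein, stood at 0.792 (0.676 to 0.928). The caseins were lower in G90 than expected, with CSN2 at 0.630 (0.487 to 0.815), which passed 1.5-fold but not once divided by the median fold (0.684), CSN1S1 at 0.670 (0.500 to 0.898) and CSN3 at 0.744. In PI2 CSN1S1 and CSN2 had 0 UMIs in adipose-rich spots, with 1.63 and 0.279 expected, and only CSN3 could be measured (0.845). The luminal sum per spot had a median of 1566 CPM (0 to 4164) in adipose-rich and 1891 CPM (0 to 8198) in other G90 spots, and 2001 (0 to 4669) against 2685 (0 to 15622) in PI2, and at matched depth the sums were 1706 against 1968 CPM in G90 (0.867-fold) and 2301 against 3306 CPM in PI2 (0.696-fold). Epithelial RNA was therefore still present in most adipose-rich spots.

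Immune genes gave 7 calls, higher or lower, in 47 measured folds over both sections. Of all genes, 2.91% were higher and 6.73% lower in G90, and 4.62% were higher and 6.28% lower in PI2. Of 14 macrophage genes, 0 were higher and 1, SPP1, lower in G90, close to the 6.73% of all genes lower there, and in PI2 CD163, a scavenger receptor, was higher on 17 UMIs (1.53-fold, 0.936 to 2.49), but at 0.964 when spots were thinned. SPP1, at 0.226, and CD14, the lipopolysaccharide co-receptor (0.561-fold, 0.443 to 0.710), were lower among the 14 there, against 6.28% of all genes. The median of the 14 was 0.976-fold, and the summed level of the list was 0.884-fold. The study also uses CD14 to mark epithelial precursor cells, so its fold cannot be assigned to macrophages. Of the T and NK cell genes 2 of 4 were lower in G90, against 6.73% of all genes, KLRK1, an activating receptor (0.539-fold, 0.327 to 0.890), and CD2, an adhesion molecule (0.606-fold, 0.320 to 1.15), which was at 1.003 when thinned. In PI2 CD3E, a T cell receptor chain, was lower among 5 (0.620-fold, 0.341 to 1.13) but at 1.24 when thinned. No B or plasma cell gene passed, of 6 in G90 and 4 in PI2. Mitochondrial transcripts, a measure of RNA quality and cell content, had a median fold of 1.17 over 12 genes in G90 and 1.21 over 11 in PI2. ND5 passed in PI2 (1.82-fold), against 4.62% of all genes higher. The part of mitochondrial RNA in the results was not tested.

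Both sections could be compared for 6702 genes. Of the 131 higher in G90 and the 306 higher in PI2, 53 were shared, of which 5 are the rule markers, fixed as high by the choice of spots. Without them 48 were shared, 38.1% of the 126 in G90 and 15.9% of the 301 in PI2, and 42 of these had both intervals above 1. Of all genes but the markers, 4.49% were higher in PI2, the base for the G90 list, and 1.88% in G90, the base for the PI2 list. Of the 286 lower in G90 and the 416 lower in PI2, 34 were shared, and 14 of these had both intervals below 1. The 34 were 11.9% of the G90 list, against 6.21% of all genes lower in PI2. They were 8.17% of the PI2 list, against 4.27% of all genes lower in G90. In opposite directions, 3 genes were higher in G90 and lower in PI2, and 8 were lower in G90 and higher in PI2.

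**Figure D4:**
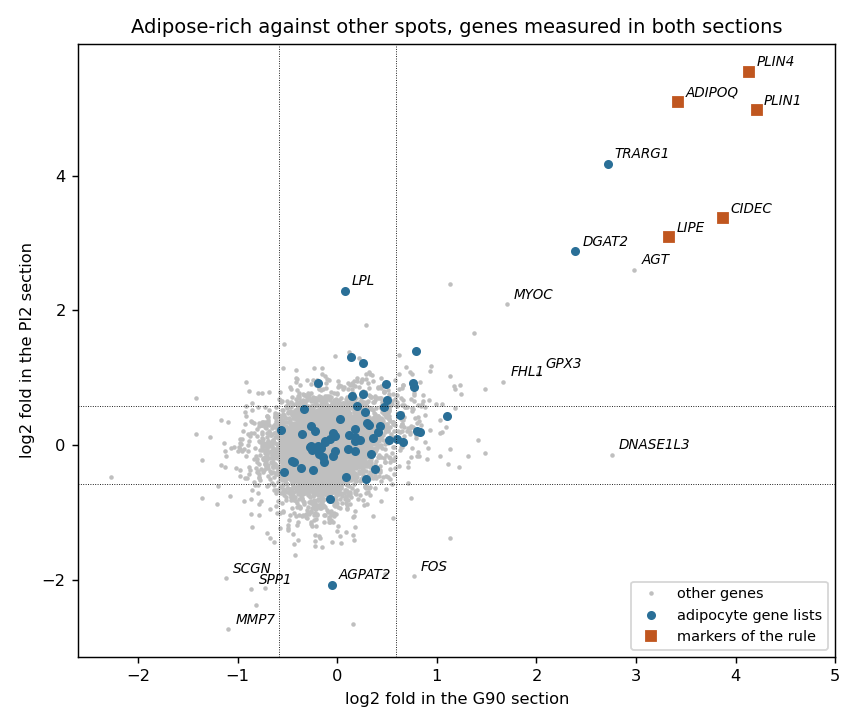
Log2 fold in adipose-rich over other spots in the G90 section (horizontal axis) and in the PI2 section (vertical axis), dotted lines at 1.5-fold either way, with 1 point per gene measured in both. Of 6702 genes, 53 lie at least 1.5-fold above 1 on both axes, AGT, DGAT2 and TRARG1 among them, while LPL and FOS lie far from the diagonal.

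Where the folds of the sections differed, the ratio is given with its counting interval, which does not cover variation between sows. LPL was 4.65 times as enriched in PI2 as in G90 (3.51 to 6.17). The adipose-rich spots had 294 CPM of LPL in G90 and 93.4 CPM in PI2, while the expected level of the other spots was 279 CPM in G90 and 19.0 CPM in PI2, so LPL was about as high outside as inside the adipose-rich spots in G90 and several-fold higher inside in PI2. The ratio was 2.25 for SCD (1.66 to 3.04), 2.15 for FABP3 (1.56 to 2.97) and 2.76 for TRARG1 (1.49 to 5.09). It was below 1 for PNPLA2 at 0.659, for GPX3 at 0.514 and for AGPAT2 at 0.246 (0.114 to 0.535). For DNASE1L3 it was 0.134 (0.0645 to 0.279). FOS, an immediate early gene, had 622 UMIs against 365 expected in G90 (1.70-fold, 1.56 to 1.86) and 12 against 46.3 in PI2 (0.259-fold, 0.147 to 0.457).

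Gland nuclei were chosen by the same 5 markers to see whether the genes of the spots lay in nuclei that carry adipocyte RNA. They numbered 720 of 100467 nuclei with at least 1000 UMIs (0.717%), and 1 library stood apart with 586 of them, a sow in lactation (L20), so values are given per sow over the 8 sows with at least 5 such nuclei. Of the 21 leading genes, 20 were listed for nuclei, and SLC25A34 was not. DGAT2, ELOVL6, FHL1 and LPL were higher in marker nuclei than in other nuclei of the same sow in 8 of 8 sows, and AGT, TRARG1, AK4 and GPX3 in 7 of 8. Without the library that stood apart the counts were 7 of 7 for the first 4 and 6 of 7 for the other 4. In some sows these directions rest on very few UMIs. DGAT2 had 1 UMI in the 5 marker nuclei of an L0 sow. In the 18 marker nuclei of a G90 sow DGAT2 had 3 UMIs and AGT 1. A further 6 leading genes were higher in 4 to 6 sows, CA3, OPRL1 and THRSP in 6, ABLIM1 and SDR16C5 in 5 and SCD in 4. Another 3 were higher in 1 to 3 sows, SFRP5 in 3, PI16 in 2 and GJA5 in 1. The last 3 (DNASE1L3, MYOC and HBB) were higher in none, where few UMIs could be counted.

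DGAT2 ranged over the 8 sows from 46.2 to 3692 CPM with a median of 222 in marker nuclei, against a median of 4.20 in other nuclei. AGT ranged from 0 to 513 CPM (median 308, against 3.30) and TRARG1 from 0 to 776 CPM (median 185, against 1.11). LPL ranged from 175 to 1010 CPM, median 552 against 71.6. All 4 genes had higher medians in marker nuclei, and LPL did so although it was near 1 in the G90 spots. LPL in other nuclei was 160 and 349 CPM in the G90 sows and 35.3 CPM in the PI2 sow with 34 marker nuclei, and in their marker nuclei it was 277, 868 and 556 CPM.

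PPARG was higher in 7 of 8 sows with a median of 1150 CPM against 49.97, and its fold in the G90 spots was 1.83. Likewise ACKR4 was higher in 7 of 8 (262 against 3.68 CPM). CD36, ACSL1 and PNPLA2 were higher in 8 of 8. Other genes raised in the G90 spots were not, with RBP4 higher in 4 of 8, CCL21 in 1 and SFRP4 in 0. DNASE1L3 and MYOC, which led in spots, were too rare in nuclei to be read in most sows, with medians of 0.910 and 0.641 CPM in other nuclei. Each had 18 UMIs in marker nuclei, all in the L20 library, at 6.47 CPM, against 7.16 CPM of DNASE1L3 and 36.7 CPM of MYOC in that sow's other nuclei. HBB had 27 UMIs in marker nuclei of all 8 sows. SCGN, low in the spots of both sections, was also higher in 0 of 8, with a median of 50.5 CPM against 227.

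**Figure D5:**
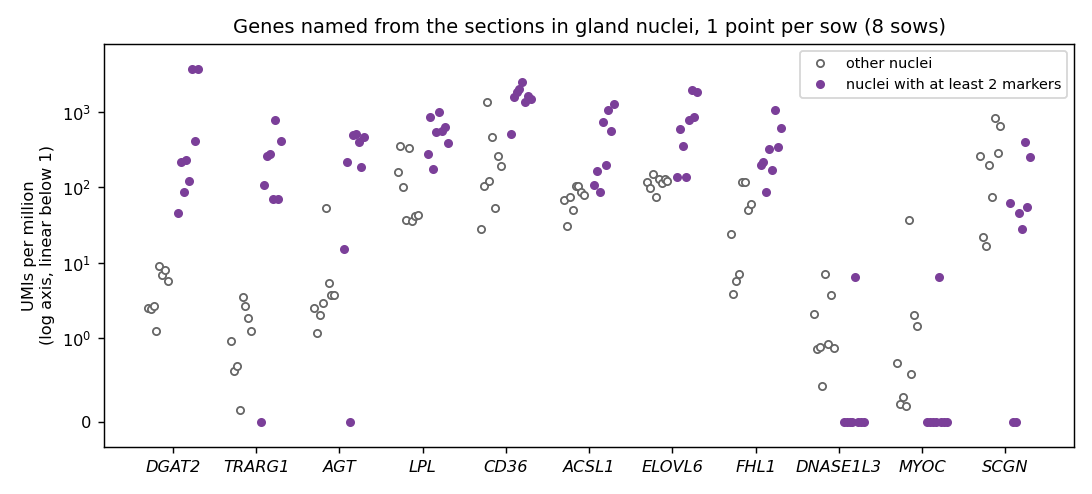
Level of 11 genes (CPM, log axis, linear below 1) in nuclei chosen by the 5 markers and in the other nuclei of the same sow, for the 8 sows with at least 5 marker nuclei, with 1 point per sow. DGAT2 reaches 3692 CPM and LPL 1010 CPM in marker nuclei, and DNASE1L3 and MYOC were rare in both kinds of nuclei.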

How the data were processed

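Spatial transcriptomics counts of 2 gland sections and single-nucleus counts of 10 gland libraries were used. The 2 milk samples were not used. The authors deposited raw UMI counts per gene and spot or nucleus, with 21280 genes listed for the sections. The submitters' processing notes name Space Ranger 1.2.0 and Seurat 4.3.0, while the header of the section counts gives Space Ranger 1.3.1. No source used here states the annotation release, and spot positions were not used. Alignment settings decide which reads near a gene's 3′ end were counted.

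Adipose-rich spots had at least 1000 UMIs and UMIs in at least 2 of the 5 markers. Members and lists were chosen with earlier results of these data known. Expected UMIs were the rate of the other spots in 5 depth bins, cut at the members' quintiles, times the members' UMIs per bin. A gene was measured if the mean of observed and expected UMIs was at least 10, and called at 1.5-fold either way. A gene with few expected UMIs could reach that mean only if already past 1.5-fold higher, so its higher call was fixed by the filter. In G90 this held for the leading genes AGT, THRSP, SFRP5, SLC25A34, OPRL1 and DNASE1L3, and for ACKR4. In PI2 it held for AGT, DGAT2, TRARG1, AK4, ABLIM1 and MYOC. Genes with few observed UMIs could likewise enter only if already past 1.5-fold lower. No pseudocount was used. The interval took observed and expected counts as Poisson, and shares had exact binomial (Clopper-Pearson) intervals. Spots are not replicates, so no test was run. Named genes were, in each section, the 12 with a symbol and the highest lower bound and the 6 with the lowest upper bound, up to 4 measured members of each of 25 lists, and genes the study names. Any other gene named was chosen after its values were seen. Gene levels in CPM were computed here. No doublet caller was run on nuclei or spots. The fold calculation was tested on simulated data. Alternatives changed the depth matching, markers, UMI minimum, scaling, count filter and fold. Python 3.11.15, numpy 2.4.6, scipy 1.17.1, pandas 2.3.3 and matplotlib 3.10.9 were used.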

Additional observations from a re-analysis of the deposited data

How the results depend on the processing

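Each section was 1 sample, so depth and counting error set the limits, and what differs between sows was not measured. No paired analysis was possible for the sections because each stage had 1 section, and no test was run. Marker nuclei and other nuclei were compared within the same sow, also without a test. The named genes recomputed here include the 5 rule markers, fixed as high by the choice of spots. Thinning kept 142 of 311 folds within their counting interval, while leaving out the UMI minimum kept all 311. Over all alternatives, of 2514 recomputed gene folds, 2044 moved by less than their counting interval, 463 moved further and 7 changed direction. Of 101 calls of 1.5-fold among named genes, 21 fell back within it under at least 1 alternative. The 7 were CD2 in G90 (1.003, thinned), IGF1R in G90 (1.29 thinned and 1.07 with at least 3 markers), CD163 (0.964, thinned) and CD3E (1.24, thinned) in PI2, and MYOC (0) and SLC2A4 (0.685) in PI2 with at least 3 markers, where the smaller number of spots leaves few UMIs. Over the alternatives AGT ranged from 6.40 to 17.3-fold in G90 and 5.44 to 9.33-fold in PI2, DGAT2 from 4.92 to 13.3 and 6.84 to 12.7, TRARG1 from 5.72 to 17.9 and 16.0 to 25.2, LPL from 1.03 to 1.29 and 4.71 to 10.2, and SCGN from 0.410 to 0.548 and 0.116 to 0.257.

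The 420 adipose-rich spots of G90 became 142 with at least 3 markers, 314 with at least 2000 UMIs, 133 when thinned, and 222, 347, 247 and 327 without ADIPOQ, PLIN1, PLIN4 and LIPE. The 82 of PI2 became 23 with at least 3 markers, 14 when thinned, and 46, 65, 57 and 58 without ADIPOQ, PLIN1, LIPE and CIDEC. The 292 higher and 675 lower genes of G90 became 445 and 382 when divided by the median fold, 756 and 1394 by mean CPM of single spots, 907 and 1619 with no filter, 95 and 131 with at least 50 UMIs, and 75 and 80 at 2-fold. The 312 higher and 424 lower genes of PI2 became 115 and 56 when thinned, 159 and 137 with at least 3 markers, 1341 and 1730 with no filter, 30 and 21 with at least 50 UMIs, and 42 and 85 at 2-fold, and the higher genes became 934 by mean CPM. Fewer genes could be measured under thinning, 3 markers and the 50 UMI filter, and for the others the cause was not tested. The higher adipocyte genes went from 15 to 37 in G90 and from 14 to 24 in PI2 by mean CPM, and to 3 in PI2 when thinned. The 720 marker nuclei became 787 at 500 UMIs.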

Other observations

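The amount of DGAT2 RNA in nuclei with adipocyte markers differed widely between sows, and it was looked at after its values in the spots were seen. In the PI2 sows 28 of 34 and 1 of 3 marker nuclei held DGAT2. The first had a median of 11.5 UMIs per nucleus and 536 UMIs in all, and 1.35% of that sow's other nuclei held it (median depth 4302 and 2054 UMIs). In the sows later in involution (PI7) 24 of 45 (median 1) and 11 of 12 (median 6) held it, against 1.95% and 1.14% of their other nuclei. In the L20 sow with 586 marker nuclei, 142 (24.2%) held it and the median was 0, against 2.29% of the other nuclei (median depth 4248 and 2522 UMIs), and in the other L20 sow 3 of 11 held it, against 0.262%. In the G90 sows 2 of 18 and 2 of 5 marker nuclei held DGAT2, against 0.780% and 0.700% of the other nuclei. In the L0 sows 1 of 5 and 1 of 1 held it, against 0.621% and 1.40%. No comparison between stages was tested, since each stage had 2 sows and only 1 library, at L20, held more than 45 marker nuclei.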
